A study of Rattus norvegicus with 6 samples.

Results

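Described here are 34 rat genes of glycolysis, glycogen metabolism and glucose uptake, read in whole hearts that had been released from an aortic constriction (TAC-R), that were under the constriction (TAC) or that were normal. The genes were picked by their gene symbols in the platform annotation of the array. All 34 were found, each with 1 row of the table, among 15037 genes with a symbol. By role they were 2 glucose transporters, 9 enzymes of the steps down to triose phosphate isomerase, 3 enzymes that make and break fructose 2,6-bisphosphate, 7 enzymes of the steps down to pyruvate, 6 genes of lactate and pyruvate use, 3 genes of glycogen synthesis and 4 of glycogen breakdown.

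The hearts came from male Sprague-Dawley rats of 10 weeks, and RNA was read on 6 Clariom S Rat arrays, with 2 arrays in each of the 3 groups. In TAC a silk thread is tied around the transverse aorta, which narrows it and raises the load on the left ventricle, and the TAC-R hearts were released from it. No genetic change is named for any group, the time under TAC and after release is not given in the sources used here, and whether the normal hearts had a mock operation is not stated. Nothing in the labels ties the 2 arrays of a group to separate rats, so p-values here reflect array-to-array spread that could be purely technical. The RNA extraction label speaks of cultured fibroblasts, whereas the other labels speak of whole heart. Of 14 listed cardiomyocyte markers 12 were measured, and all 12 lay above the floor described below on some or all arrays. Of 9 measured fibroblast markers 8 did so too, while 9 of 10 measured skeletal muscle markers lay below it on all arrays.

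Glycolysis splits glucose into pyruvate in the cytosol, and muscle stores glucose as glycogen, which glycogen phosphorylase opens again. The healthy adult heart is known for burning mostly fatty acids, and pressure-loaded hearts of rodents are known for a greater use of glucose. Many steps have several isozymes, of which some are typical of striated muscle, such as Pfkm, Pgam2, Eno3 and Pygm, while others occur in most tissues, such as Pfkl, Pgam1 and Eno1.

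Of the 34 genes, 27 had signals above the floor on all 6 arrays. The floor is the 95th percentile of the negative control rows of each array, which lay between 8.09 and 8.55 log2 units. Pfkp was above it on 5 arrays and Phka1 on 4, and Aldoc, Pfkfb1, Pfkfb3, Slc16a3 and Pygl were below it on all 6, so that no size of a difference was measured for these 5. None of the 34 reached the ceiling of the data at 19.93 log2 units, but Ldhb read 19.65 on 5 of 6 arrays, close under it, and a difference there could be hidden. Gapdh, between 19.29 and 19.45, and Pygm, between 19.00 and 19.17, also lay near it. Whether their differences are understated there was not tested. Signals of different genes come from different probes, and their heights are not compared here.

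**Figure D1:**
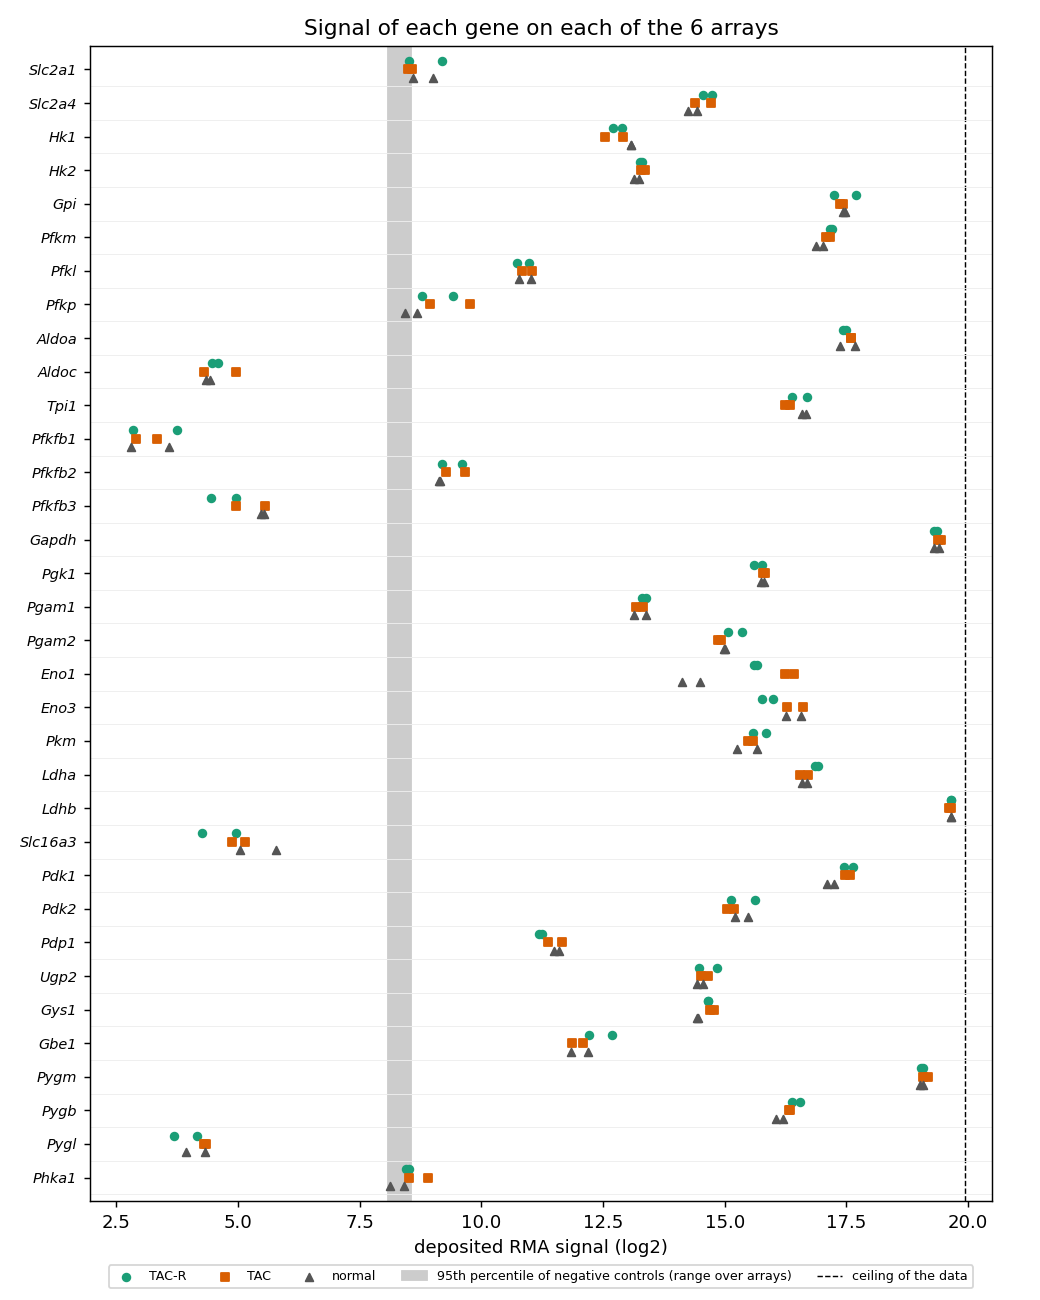
Deposited RMA signal (x axis, log2) of the 34 genes (y axis, ordered by role), with 2 arrays each for TAC-R (circles), TAC (squares) and normal (triangles); the grey band is the range of the floor over arrays and the dashed line the ceiling. The 3 groups lie close together in most genes, and Eno1 has its 6 values in 3 separate pairs, with normal lowest and TAC highest.

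Eno1, the alpha-enolase of most tissues, was the 1 gene of the 34 that passed the test in TAC against normal hearts, and it was higher in TAC. In TAC-R hearts 0 of the 34 passed it against TAC hearts, and 0 against normal hearts; with 2 arrays per group, a gene that did not pass is not shown to be alike. The test was limma's moderated linear model over all 23188 tested rows, with a gene called at a Benjamini-Hochberg adjusted p under 0.05. Of all tested rows it called 0.254% in TAC against normal, 0.431% in TAC-R against TAC and 0.0906% in TAC-R against normal. By direction, 0.19% of all rows were called higher and 0.0647% lower in TAC than in normal hearts, 0.224% higher and 0.207% lower in TAC-R than in TAC hearts, and 0.0604% higher and 0.0302% lower in TAC-R than in normal hearts. The 1 called gene among 34 and the 0 in the other comparisons are to be read against these small shares. An unadjusted p under 0.05 was reached in TAC against normal by 2 of the 34 genes, Eno1 and Pfkp, and by 10.3% of all rows. In TAC-R against TAC it was reached by 2 genes, Eno1 and Eno3, and by 11% of all rows, and in TAC-R against normal by 3 genes, Eno1, Pfkfb3 and Slc16a3, and by 10.7% of all rows. The 3 comparisons share arrays pairwise, so their results are not independent of each other.

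The differences of the 34 genes ran between -0.41 and 2.02 log2 units in TAC minus normal, between -0.70 and 0.47 in TAC-R minus TAC and between -0.81 and 1.32 in TAC-R minus normal. In TAC minus normal the median over the 34 genes was 0.05 log2 units, with 20 positive and 14 negative, beside a median of 0.00165 over all tested rows. TAC-R minus TAC had a median of -0.02 over the 34 genes, with 17 in each direction, and 0.00452 over all rows. TAC-R minus normal had a median of 0.08 over the 34 genes, with 22 positive and 11 negative, and 0.00398 over all rows. The median size of a difference, whatever its sign, was 0.15, 0.14 and 0.21 in these 3 comparisons for the 34 genes, and 0.23 in each for all rows. Most of all rows are dim, however, and over the 6207 rows above the floor that size was 0.20, 0.21 and 0.21, beside 0.10, 0.13 and 0.21 for the 29 genes of the list above the floor on some or all arrays.

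The 95% confidence intervals of the model were also counted. Of the 29 genes above the floor on some or all arrays, 27 had an interval within 1 log2 unit on either side of 0 in TAC minus normal, all except Eno1 and Pfkp. In TAC-R minus TAC and in TAC-R minus normal it was 25 of 29, all except Eno1, Eno3, Pfkp and Gbe1. These counts include Ldhb, near the ceiling, in all 3 comparisons, and Phka1, whose normal arrays both lay below the floor, and in these genes the interval does not limit the true difference. Gapdh and Pygm, also near the ceiling, are counted too, and whether their intervals are understated was not tested. The standard errors ran between 0.20 and 0.33 log2 units.

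**Figure D2:**
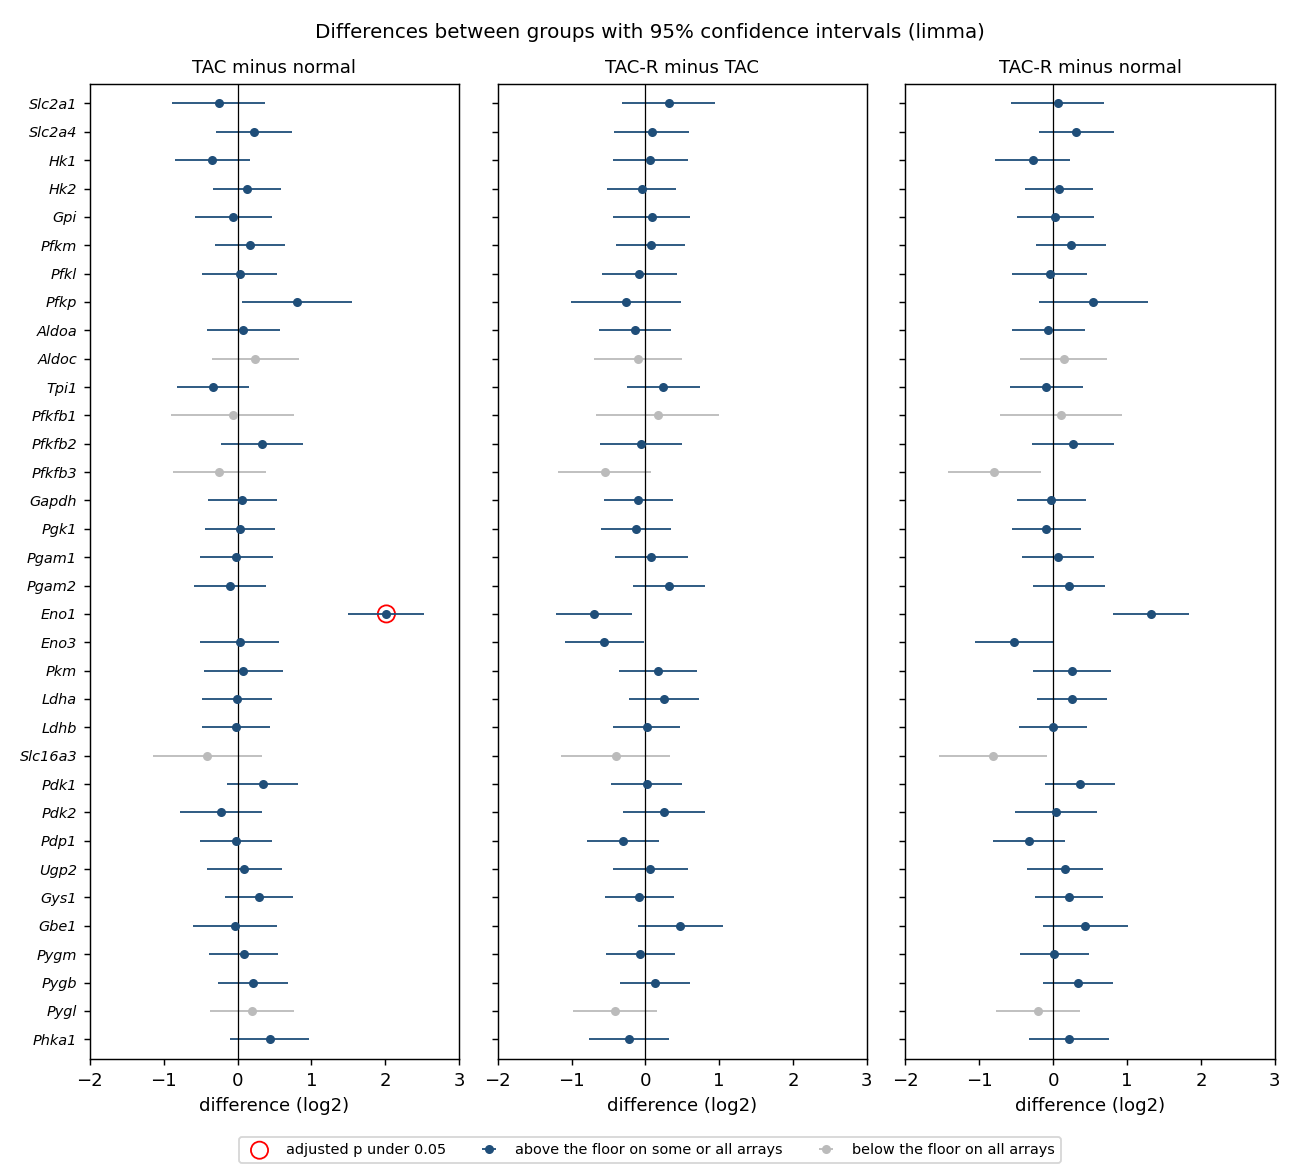
Difference between groups (x axis, log2, points) with the 95% confidence interval of the limma model (lines) for each of the 34 genes, in TAC minus normal, TAC-R minus TAC and TAC-R minus normal; grey marks the 5 genes below the floor on all arrays. Only Eno1 in TAC minus normal is ringed, at 2.02, as passing the adjusted threshold, and most other intervals span 0.

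Enolase turns 2-phosphoglycerate into phosphoenolpyruvate, late in glycolysis. Eno1 read 15.60 and 15.67 log2 units in TAC-R hearts, 16.23 and 16.43 in TAC hearts, and 14.50 and 14.13 in normal hearts. No 2 of the 3 groups overlapped: both TAC arrays were highest, both normal arrays lowest, and both TAC-R arrays in between. TAC hearts averaged 16.33 ± 0.14 and normal hearts 14.31 ± 0.26 (SD, n = 2 each). The difference was 2.02 ± 0.23 (SE), a 4.05-fold higher signal (limma's adjusted p = 0.0118), with a confidence interval from 1.50 to 2.53. In the order of all 23188 rows it stood at place 25 by size upward and at place 23 by p.

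The TAC-R arrays lay between the others without passing the test on either side. TAC-R hearts averaged 15.63 ± 0.05, which was below TAC hearts by a difference of -0.70 ± 0.23 (adjusted p = 0.301, limma) and above normal hearts by 1.32 ± 0.23 (adjusted p = 0.103). The unadjusted p-values were 0.0139 and 0.000284. The intervals ran from -1.21 to -0.18 and from 0.81 to 1.84.

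Leaving out any of the 4 arrays of its comparison, which leaves 1 array in a group, lost the call on Eno1. Its difference ran from 1.83 to 2.20 when any of the 6 arrays was left out, but the adjusted p was 0.108 without TAC 1, 0.123 without TAC 2, 0.0827 without normal 1 and 0.137 without normal 2, and 0.0427 without either TAC-R array. RefSeq annotates 31 pseudogenes named after Eno1 in the rat, and probes of the row may bind transcripts of such copies, so the row is uncertain as a measure of Eno1 alone. Other genes of the list with many such pseudogenes were Gapdh with 81, Ldha with 30, Pkm with 19 and Pgam1 with 13. Binding of probes to such copies was not tested for any of these genes.

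Eno3, the beta-enolase of striated muscle, did not follow Eno1 in TAC hearts. It read 15.99 and 15.77 log2 units in TAC-R hearts, 16.27 and 16.60 in TAC hearts, and 16.56 and 16.25 in normal hearts. The TAC arrays overlapped the normal ones, and both TAC-R arrays lay below all others. The difference was 0.03 ± 0.24 in TAC minus normal (adjusted p = 0.983), -0.55 ± 0.24 in TAC-R minus TAC (adjusted p = 0.440) and -0.53 ± 0.24 in TAC-R minus normal (adjusted p = 0.473). The difference of Eno1 exceeded that of Eno3 by 1.99 log2 units in TAC minus normal and by 1.85 in TAC-R minus normal, while in TAC-R minus TAC both were negative, with a gap of -0.14; these gaps between the genes were not tested.

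The stretch of 250 bases before the RefSeq start of a gene was available for 31 of the 34 genes, in 35 windows, from the RefSeq promoter table of build GRCr8. Slc2a4, Pdp1 and Pgk1 had none in it. Hypoxia-inducible factors are known to bind a short core at many glycolytic promoters, and 2 spellings of it, ACGTG and GCGTG, were searched on both strands. At least 1 of them was found in 23 of the 35 windows (65.7%), against 36.7% of all 33469 windows of the table. ACGTG alone was in 40.0% of the windows of these genes against 16.6% of all, and GCGTG in 45.7% against 25.9%. The windows of these genes were also richer in G and C, with a median of 60.4% against 51.2%, and the part of this in those shares was not tested. The longer word CACGTG, which holds ACGTG on both strands, was in 8.57% against 5.59%.

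Below are a window of Eno1, which was called in TAC against normal, and the windows of Ldha and Pgam1, which lie in the same pathway and did not pass the test in any comparison. Each lies wholly before the annotated gene, is written 5′ to 3′ on the plus strand, the gene's own, and has the words, or their reverse spellings CACGT and CACGC, in capitals. That of Eno1 is chr5:166002617-166002866, with 1 GCGTG word read on the other strand; Eno1 has 2 windows in the table, and the other, not shown because it lies inside the annotated gene, also holds 1 GCGTG word. That of Ldha is chr1:106507842-106508091, with 3 ACGTG words, of which 2 are the strands of a CACGTG, and 1 GCGTG word. That of Pgam1 is chr1:250672902-250673151, with 1 word of each spelling.
Eno1: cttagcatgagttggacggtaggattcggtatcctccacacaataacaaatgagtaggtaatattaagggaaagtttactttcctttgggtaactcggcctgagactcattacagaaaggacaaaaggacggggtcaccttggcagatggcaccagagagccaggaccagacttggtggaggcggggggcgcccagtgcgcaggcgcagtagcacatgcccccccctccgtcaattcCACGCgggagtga
Ldha: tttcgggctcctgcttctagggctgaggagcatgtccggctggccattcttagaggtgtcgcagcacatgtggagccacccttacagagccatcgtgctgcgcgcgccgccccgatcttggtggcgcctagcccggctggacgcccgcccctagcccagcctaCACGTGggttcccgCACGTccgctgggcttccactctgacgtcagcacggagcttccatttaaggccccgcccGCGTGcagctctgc
Pgam1: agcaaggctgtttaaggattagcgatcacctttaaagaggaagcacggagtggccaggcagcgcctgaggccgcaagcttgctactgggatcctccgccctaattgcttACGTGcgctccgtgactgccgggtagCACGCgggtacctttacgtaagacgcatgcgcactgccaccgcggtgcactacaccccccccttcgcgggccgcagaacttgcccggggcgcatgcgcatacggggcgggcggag
These are matches of letters in a window and not shown to be bound in these hearts.

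Slc2a4, the insulin-responsive glucose transporter of muscle and fat, read 14.73 and 14.55 log2 units in TAC-R hearts, 14.71 and 14.40 in TAC hearts, and 14.42 and 14.24 in normal hearts. TAC-R hearts lay above normal hearts without overlap, by 0.31 ± 0.22 (adjusted p = 0.650, limma), and the TAC arrays overlapped both. Slc2a1, the transporter of basal uptake found in most cells, lay just above the floor, at 9.18 and 8.52 in TAC-R hearts, 8.58 and 8.49 in TAC hearts, and 9.0 and 8.59 in normal hearts. The spread between the 2 TAC-R arrays alone was larger than any difference between its group means, which were at most 0.32 apart.

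The first enzymes of the pathway did not pass the test in any comparison. Hk1, the hexokinase of most tissues, read 12.88 and 12.71 in TAC-R hearts, 12.91 and 12.55 in TAC hearts, and 13.07 in both normal hearts. Both other groups lay below normal without overlap, TAC by a difference of -0.34 ± 0.22 (adjusted p = 0.620) and TAC-R by -0.28 ± 0.22 (adjusted p = 0.698). Hk2, the insulin-regulated hexokinase of muscle, differed by no more than 0.13 between any 2 groups, and Gpi, which turns glucose 6-phosphate into fructose 6-phosphate, by no more than 0.09.

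Phosphofructokinase makes fructose 1,6-bisphosphate and is the main control point of glycolysis, and none of its 3 subunits passed the test. Pfkm, the muscle subunit, read 17.21 and 17.17 in TAC-R hearts, 17.15 and 17.08 in TAC hearts, and 17.03 and 16.87 in normal hearts. The 3 groups did not overlap, yet the largest gap, TAC-R minus normal, was 0.24 ± 0.21 (adjusted p = 0.714). Pfkp, the platelet subunit, read 9.42 and 8.78 in TAC-R hearts, 8.95 and 9.77 in TAC hearts, and 8.67 and 8.44 in normal hearts, of which the last lay below the floor of its array. TAC minus normal was 0.80 ± 0.33 with an unadjusted p of 0.0364 and an adjusted p of 0.454, and the 2 TAC arrays were about as far apart as that difference. Pfkl, the liver subunit, overlapped in all 3 comparisons and differed by at most 0.08.

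Aldolase and triose phosphate isomerase complete the upper part. Aldoa, the muscle aldolase, read 17.42 and 17.48 in TAC-R hearts, 17.59 and 17.60 in TAC hearts, and 17.67 and 17.36 in normal hearts, with no difference beyond 0.14. Tpi1 read 16.69 and 16.38 in TAC-R hearts, 16.24 and 16.35 in TAC hearts, and 16.58 and 16.67 in normal hearts. Its TAC arrays were the lowest of the 6, by -0.33 ± 0.22 relative to normal (adjusted p = 0.622) and with TAC-R minus TAC at 0.24 ± 0.22 (adjusted p = 0.747). Aldoc, the aldolase of brain, lay between 4.29 and 4.96 on all arrays, below the floor.

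Fructose 2,6-bisphosphate is the strongest activator of phosphofructokinase, and Pfkfb2, the heart form of the enzyme that makes and breaks it, was the 1 of 3 such genes above the floor. It read 9.20 and 9.61 in TAC-R hearts, 9.66 and 9.26 in TAC hearts, and 9.12 and 9.15 in normal hearts. Both TAC-R and TAC hearts lay above normal hearts without overlap, TAC by 0.33 ± 0.24 (adjusted p = 0.675, limma) and TAC-R by 0.27 ± 0.24 (adjusted p = 0.739), and they overlapped each other. Pfkfb3, the inducible form, had an unadjusted p of 0.0191 in TAC-R against normal (adjusted p = 0.375), with signals between 4.45 and 5.56 over all arrays, which lie below the floor. Pfkfb1, the liver form, lay between 2.80 and 3.74.

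Around Eno1, no other gene of the steps down to pyruvate passed the test in any comparison. Gapdh, the dehydrogenase often taken as a reference transcript, read 19.37 and 19.29 in TAC-R hearts, 19.39 and 19.45 in TAC hearts, and 19.41 and 19.31 in normal hearts, with differences of at most 0.09 between groups. Pgk1, the first enzyme of the pathway to make ATP, read 15.60 and 15.76 in TAC-R hearts, 15.78 and 15.84 in TAC hearts, and 15.74 and 15.80 in normal hearts. None of its group means were more than 0.13 apart. Pgam1, the phosphoglycerate mutase of most tissues, overlapped in all 3 comparisons, with differences of at most 0.08.

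Pgam2, the mutase of muscle, read 15.07 and 15.36 in TAC-R hearts, 14.86 and 14.93 in TAC hearts, and 14.99 and 15.01 in normal hearts. The TAC-R arrays were the highest and the TAC arrays the lowest, and TAC-R minus TAC was 0.32 ± 0.21 (adjusted p = 0.653). Pkm, pyruvate kinase, read 15.84 and 15.58 in TAC-R hearts, 15.49 and 15.59 in TAC hearts, and 15.66 and 15.26 in normal hearts, with overlap in all 3 comparisons. The M1 and M2 splice forms of Pkm were not read separately here.

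Lactate dehydrogenase links pyruvate and lactate. Ldha, the subunit of fast muscle, read 16.92 and 16.84 in TAC-R hearts, 16.55 and 16.71 in TAC hearts, and 16.68 and 16.58 in normal hearts. TAC-R lay above both other groups without overlap, by 0.26 ± 0.21 relative to TAC (adjusted p = 0.720) and by 0.25 ± 0.21 relative to normal (adjusted p = 0.705), and TAC minus normal was 0.00 within rounding. Ldhb, the heart subunit, read 19.65 on every array except 1 TAC array at 19.62. Slc16a3, the lactate exporter of glycolytic cells, had an unadjusted p of 0.0336 in TAC-R against normal (adjusted p = 0.430), with signals between 4.26 and 5.79 that were all below the floor.

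Pyruvate dehydrogenase decides whether pyruvate is burned, and its kinases switch it off. Pdk1, a kinase that hypoxia induces in many cells, read 17.45 and 17.63 in TAC-R hearts, 17.57 and 17.47 in TAC hearts, and 17.11 and 17.24 in normal hearts. The TAC-R and the TAC arrays all lay above the normal ones, TAC-R by 0.36 ± 0.21 (adjusted p = 0.576) and TAC by 0.34 ± 0.21 (adjusted p = 0.602), and differed from each other by 0.02. Pdk2, a kinase found in most tissues, read 15.61 and 15.13 in TAC-R hearts, 15.05 and 15.19 in TAC hearts, and 15.21 and 15.47 in normal hearts. Pdp1, the phosphatase that switches the complex on again, read 11.19 and 11.25 in TAC-R hearts, 11.66 and 11.38 in TAC hearts, and 11.49 and 11.60 in normal hearts. Its TAC-R arrays were the lowest, by -0.30 ± 0.22 relative to TAC (adjusted p = 0.680) and -0.33 ± 0.22 relative to normal (adjusted p = 0.621).

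In glycogen synthesis no gene passed the test. Gys1, the glycogen synthase of muscle, read 14.66 and 14.65 in TAC-R hearts, 14.78 and 14.69 in TAC hearts, and 14.45 and 14.44 in normal hearts. The 3 pairs did not overlap, and TAC minus normal was 0.29 ± 0.20 (adjusted p = 0.648, limma). Gbe1, the branching enzyme, read 12.21 and 12.69 in TAC-R hearts, 12.09 and 11.87 in TAC hearts, and 12.18 and 11.85 in normal hearts, with TAC-R minus TAC at 0.47 ± 0.25 (adjusted p = 0.550) and TAC-R minus normal at 0.44 ± 0.25 (adjusted p = 0.573). Ugp2, which makes the UDP-glucose that glycogen synthase uses, overlapped in all 3 comparisons and differed by at most 0.16.

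Among the phosphorylases that release glucose from glycogen, Pygb, the brain form, had 3 pairs that did not overlap. It read 16.55 and 16.38 in TAC-R hearts, 16.35 and 16.33 in TAC hearts, and 16.06 and 16.19 in normal hearts, and its TAC-R minus normal difference was 0.34 ± 0.21 (adjusted p = 0.598). Pygm, the muscle form, differed by at most 0.08 and overlapped throughout, with signals between 19.00 and 19.17. Pygl, the liver form, lay between 3.68 and 4.34, below the floor. Phka1 is the regulatory alpha subunit of muscle phosphorylase kinase. It read 8.52 and 8.45 in TAC-R hearts, 8.50 and 8.91 in TAC hearts, and 8.12 and 8.42 in normal hearts. Both normal arrays were below the floor. By group means TAC hearts lay at least 1.16-fold above normal hearts. This did not pass the test (limma's adjusted p = 0.555), and the interval from -0.10 to 0.97 log2 units spans 0.

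Groups that do not overlap are common with 2 arrays each, and their number is read against all rows. In TAC against normal 15 of the 34 genes (44.1%) had groups apart, against 43.3% of all tested rows, with 9 higher and 6 lower in TAC, where 21.9% of all rows were higher and 21.3% lower. In TAC-R against TAC 14 (41.2%) had groups apart, against 40.5% of all rows, with 6 higher and 8 lower in TAC-R, where 20.1% and 20.4% of all rows were. In TAC-R against normal it was 19 (55.9%) against 40.9% of all rows, with 14 higher in TAC-R and 5 lower, where 20.6% of all rows were higher and 20.3% lower. Of the 14 higher genes, Aldoc was below the floor on all arrays and Phka1 on both normal arrays, and of the 5 lower genes, Pfkfb3 and Slc16a3 were below it on all arrays.

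In 4 steps a form of most tissues can be set beside a muscle form, by the gap between their differences, which was not tested. In TAC minus normal the gap was 1.99 for Eno1 over Eno3, 0.09 for Pgam1 over Pgam2, -0.48 for Hk1 over Hk2 and -0.14 for Pfkl over Pfkm. In TAC-R minus TAC the gaps, in the same order, were -0.14, -0.24, 0.12 and -0.16. In TAC-R minus normal they were 1.85, -0.15, -0.36 and -0.29, so that with the sign counted Eno1 alone of these 4 forms lay above its muscle form. By size alone the difference of Hk1 (-0.28) also exceeded that of Hk2 (0.08) there.

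Other genes of the pathways were read from 6 lists chosen with earlier results of these data known. In the lists of other glycolysis and glucose transport genes (20 measured), pyruvate dehydrogenase and the pyruvate carrier (10), other glycogen genes (18), insulin and AMPK control of glucose uptake (18), hypoxia-inducible targets outside glycolysis (16) and the pentose phosphate and hexosamine branches (11), 0 genes were called by limma in any of the 3 comparisons. At an unadjusted p under 0.05 these lists, in the same order, had 6, 0, 4, 2, 1 and 2 genes in TAC against normal, 5, 0, 2, 3, 4 and 0 in TAC-R against TAC, and 5, 0, 1, 3, 1 and 0 in TAC-R against normal. Of all tested rows 10.3%, 11% and 10.7% reached it in these comparisons. Their median differences in TAC minus normal ran between -0.10 for the pyruvate dehydrogenase list and 0.28 for the other glycolysis genes, of which 15 of 20 lay below the floor on all arrays.

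**Figure D3:**
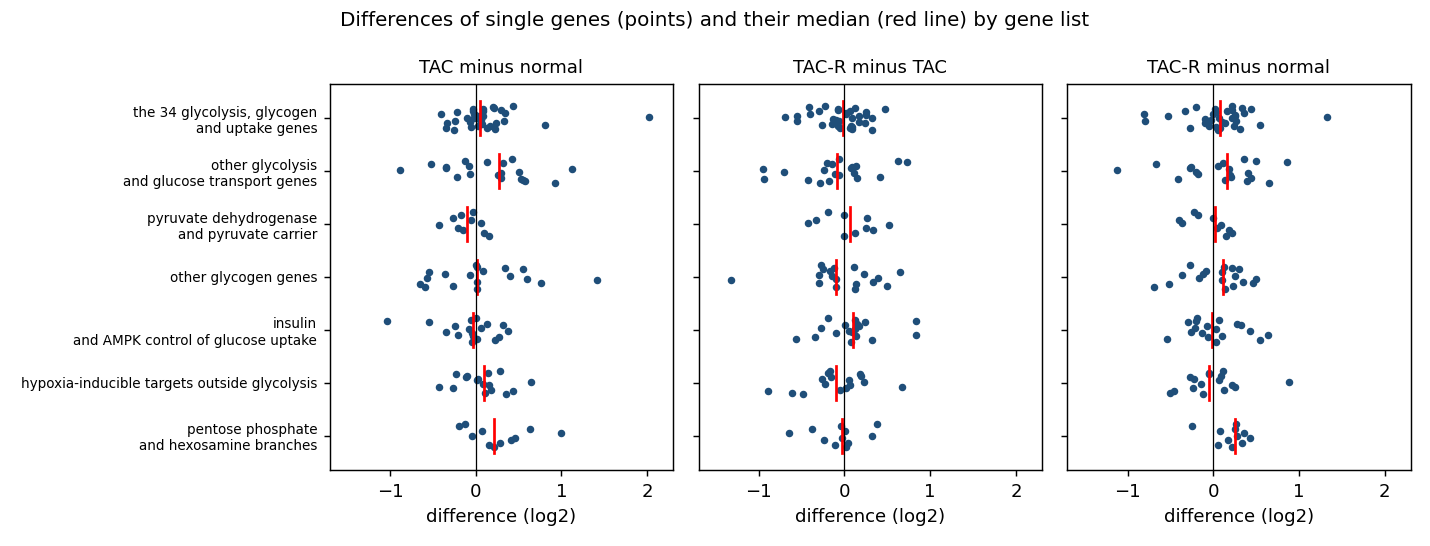
Difference of each measured gene (points, log2, x axis) and the median (red line) of the 34 genes and of the 6 other pathway lists (rows), in TAC minus normal, TAC-R minus TAC and TAC-R minus normal. The medians lie between -0.10 and 0.28 in every panel, and Eno1, at 2.02, lies farthest from 0 in the first.

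Among the genes of those lists with the largest differences, Phkg1, Bpgm and Txnip had TAC hearts apart from both other groups, without passing the test. Phkg1, the catalytic gamma subunit of muscle phosphorylase kinase, read 7.98 and 8.33 in TAC-R hearts, 9.65 and 9.31 in TAC hearts, and 7.81 and 8.30 in normal hearts. The TAC arrays were alone in standing well above the floor, at least 1.97-fold above the normal ones (adjusted p = 0.103, limma), and TAC-R minus TAC was -1.32 ± 0.26 (adjusted p = 0.0944). Bpgm, which makes the 2,3-bisphosphoglycerate of red cells, read 7.35 and 7.53 in TAC-R hearts, 8.35 and 8.43 in TAC hearts, and 7.25 and 7.27 in normal hearts. The differences were 1.13 in TAC minus normal (adjusted p = 0.103), where the normal arrays were below the floor and the size was not measured, and -0.95 in TAC-R minus TAC (adjusted p = 0.135), where the TAC-R arrays were below the floor and the difference is at least 1.19-fold lower.

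Txnip, which restrains glucose uptake, read 16.27 and 16.57 in TAC-R hearts, 15.68 and 15.50 in TAC hearts, and 16.61 and 16.64 in normal hearts. TAC lay below both other groups without overlap, by -1.04 ± 0.22 relative to normal (adjusted p = 0.158), and TAC-R minus TAC was 0.83 ± 0.22 (adjusted p = 0.2). Slc2a12, another glucose transporter, had a TAC-R minus TAC difference of -0.94 (adjusted p = 0.143), with array TAC-R 1 below the floor. Its TAC arrays also lay above both other groups without overlap. Slc16a1, a carrier of lactate and pyruvate, had a difference of 0.86 ± 0.24 in TAC-R minus normal (adjusted p = 0.304). Gaa, which digests glycogen in lysosomes, had a TAC minus normal difference of 0.77 ± 0.21 (adjusted p = 0.292), and its TAC arrays too lay above both other groups. Pik3r1, a subunit of the kinase that insulin receptors switch on, had a difference of 0.84 in TAC-R minus TAC (adjusted p = 0.182).

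The genes that carry the oxygen response to glycolytic promoters did not pass either. Hif1a, the oxygen-regulated subunit, read 10.08 and 9.89 in TAC-R hearts, 10.46 in both TAC hearts, and 10.17 and 10.03 in normal hearts. Arnt, its partner, read 11.80 and 11.21 in TAC-R hearts, 12.33 and 12.46 in TAC hearts, and 11.93 and 11.99 in normal hearts, with TAC-R minus TAC at -0.89 ± 0.25 (adjusted p = 0.225). Bnip3, a target of these factors, read 12.59 and 13.38 in TAC-R hearts, 12.26 and 12.35 in TAC hearts, and 12.68 and 12.79 in normal hearts, lowest in TAC. Epas1, another oxygen-regulated subunit, read 16.24 and 15.72 in TAC-R hearts, 16.74 and 16.45 in TAC hearts, and 16.66 and 16.31 in normal hearts. Its TAC and normal arrays overlapped and its TAC-R arrays were the lowest, by -0.62 ± 0.26 relative to TAC (adjusted p = 0.434), whereas in Hif1a, Arnt and Bnip3 the TAC arrays were outermost. These 4 make up the 3 largest differences of each comparison among the genes of that list above the floor.

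By called genes, red cell markers differed in the direction of Eno1 in all 3 comparisons, and fibroblast markers in TAC-R against TAC. By median difference, macrophage markers, of which 8 of 10 lay below the floor, also had that direction in all 3 (0.385, -0.248 and 0.245). Fibroblast markers and smooth muscle and pericyte markers had it in TAC minus normal (0.737 and 0.552) and in TAC-R minus TAC (-0.874 and -0.814). In TAC-R minus normal these 2 lists went the other way (-0.507 and -0.307). The median of endothelial markers was 0.0428 in TAC minus normal, -0.575 in TAC-R minus TAC and -0.348 in TAC-R minus normal, the last again the other way. Whole hearts mix many cell types, and fewer cells of a type cannot be told apart from less RNA per cell. Of 12 listed red cell markers 9 were measured, of which Ahsp, Epb42 and Rhag were below the floor on all arrays. In TAC against normal 5 of the 9 were called higher (Alas2, Slc4a1, Hbb, Hbb-b1 and Hbb-bs), in TAC-R against TAC 3 were called lower, and in TAC-R against normal 1 was called higher, Alas2. The normal arrays of Alas2 lay below the floor, and the size of its TAC-R minus normal difference was not measured. The mean signal of the 9 was 10.26 and 10.36 log2 units in TAC-R hearts, 11.50 and 11.26 in TAC hearts, and 9.55 and 9.70 in normal hearts, in the same order of the 3 groups as Eno1.

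Hbb-b1, a beta-globin, read 13.78 and 14.00 in TAC-R hearts, 16.62 and 16.65 in TAC hearts, and 13.57 and 14.05 in normal hearts, so that its TAC-R and normal arrays overlapped where those of Eno1 did not. Alas2, the haem synthesis enzyme of red cell precursors, read 8.36 and 8.61 in TAC-R hearts, 9.97 and 9.65 in TAC hearts, and 6.77 and 6.80 in normal hearts. It was, like Eno1, intermediate in TAC-R hearts.

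Of 10 fibroblast markers 9 were measured, with a mean of 10.43 and 10.16 in TAC-R hearts, 11.39 on both TAC arrays, and 10.74 and 10.56 in normal hearts. None was called in TAC against normal or in TAC-R against normal, where 7 and 3 had an unadjusted p under 0.05, and Col3a1 and Col1a2 were called lower in TAC-R against TAC. Macrophage markers had a mean of 6.49 and 6.48 in TAC-R hearts, 6.76 on both TAC arrays, and 6.39 and 6.13 in normal hearts, with 8 of 10 below the floor and 0 called by limma (3, 2 and 2 at an unadjusted p under 0.05 in TAC against normal, TAC-R against TAC and TAC-R against normal). Endothelial markers had a mean of 10.25 and 9.86 in TAC-R hearts, 10.63 and 10.49 in TAC hearts, and 10.44 and 10.54 in normal hearts, with 0 called (1, 5 and 3 at an unadjusted p under 0.05). Smooth muscle and pericyte markers had a mean of 9.78 and 9.31 in TAC-R hearts, 10.39 and 10.22 in TAC hearts, and 9.61 and 9.62 in normal hearts, and of 8 only Cnn1, below the floor on all arrays, was called, in TAC against normal. The cardiomyocyte markers had means between 19.12 and 19.21 on all arrays, near the ceiling, and 0 were called (1, 0 and 0 at an unadjusted p under 0.05). That 1 was Ryr2, the calcium release channel, at 16.09 and 16.21 in TAC-R hearts, 15.73 and 15.59 in TAC hearts, and 16.51 and 16.20 in normal hearts, with TAC minus normal at -0.69 ± 0.22 (adjusted p = 0.360). The part of any of these cell types in the signal of Eno1 was not tested.

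Atrial markers also differed between arrays, and the 2 TAC-R arrays differed from each other in it. The mean of 8 atrial markers was 10.72 and 9.58 in TAC-R hearts, 8.38 and 8.40 in TAC hearts, and 8.64 and 8.73 in normal hearts. Of the 8, Sln and Bmp10 lay below the floor on all arrays, and only Myl7 was called by limma. An unadjusted p under 0.05 was reached by 1 in TAC against normal, 5 in TAC-R against TAC and 4 in TAC-R against normal. Dkk3 went the other way in TAC-R minus TAC, at -0.63 ± 0.21 (adjusted p = 0.326). Myl7, the atrial myosin light chain, was at least 38-fold higher in TAC-R than in TAC hearts (adjusted p = 0.00315) and at least 30.3-fold higher than in normal hearts (adjusted p = 0.0105). Its part in the TAC-R differences of the 34 genes was not tested.

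**Figure D4:**
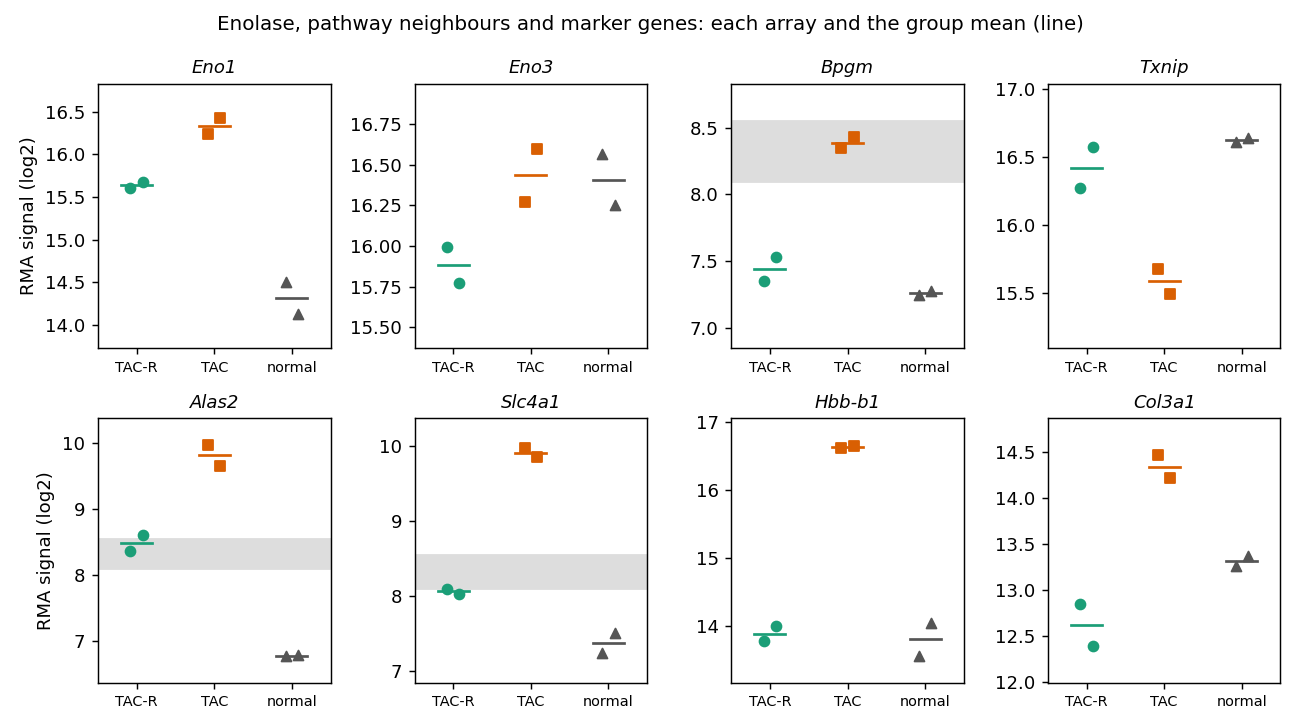
Deposited RMA signal (y axis, log2, each panel on its own scale that does not start at 0) of Eno1, Eno3, Bpgm and Txnip and of 4 marker genes on each array of TAC-R, TAC and normal hearts; lines are means of 2 arrays and the grey band is the range of the floor over arrays. Eno1, Bpgm, Alas2, Slc4a1, Hbb-b1 and Col3a1 are all highest on the TAC arrays, Txnip is lowest there, and Eno3 is not set apart in TAC.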

How the data were processed

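Total RNA of whole hearts was measured on 6 arrays, 2 each of TAC-R, TAC and normal. The deposited log2 signals were made by the authors as RMA (robust multi-array average) values with Expression Console software, per the labels, from core exons; its version is not stated. They were used without further scaling. Because RMA equalises the arrays, a change common to all transcripts is invisible. Of 24834 rows, 1646 were controls and 23188 were tested, 8139 of them with no symbol. Array medians ran between 5.31 and 5.39, and the number of arrays limits the precision.

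limma 3.58.1 in R 4.3.3 modelled the 6 arrays together by group with no covariate (3 residual degrees of freedom, a prior of 5.71), with Benjamini-Hochberg adjustment over all tested rows. An exact two-sided permutation test of 2 against 2 arrays cannot go below 0.33, so none was used. Differences are log2 ± SE. A group with all arrays under the floor gives only a bound. The code was tested on simulated data. The 34 genes and all lists were chosen with earlier results of these data known. All 34 genes are named; of other lists, those called, and otherwise up to 3 with the largest difference above the floor. Promoter windows, gene names and pseudogenes come from RefSeq, GRCr8; the array's own build is not given in the sources used here, so no array coordinates are given. Alternatives are given in the closing section.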

Additional observations from a re-analysis of the deposited data

How the results depend on the processing

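With 2 arrays per group, the number of calls depended on single arrays and on the settings of the fit. The 59 rows called in TAC against normal ran between 0 and 35 when an array was left out, and were 36 with the replicate number as a block, 170 with an intensity trend, 39 with control rows kept in, 35 when only both groups were fitted and 353 by unadjusted p with a 2-fold minimum. The 100 rows in TAC-R against TAC ran between 4 and 37, and were 47 with the block, 344 with the trend, 197 without dim rows, 44 with control rows, 37 with only both groups and 456 unadjusted. The 21 rows in TAC-R against normal ran between 0 and 12, and were 11 with the block, 156 with the trend, 52 without dim rows, 10 with control rows, 12 with only both groups, 54 with array medians aligned, 37 without rows at the ceiling and 331 unadjusted. For the genes described here, 1 was called in TAC against normal, and 0 or 1 when an array was left out. In TAC-R against TAC 1 was called with the trend, and in TAC-R against normal 1 with the trend, without dim rows and unadjusted with a 2-fold minimum. Wherever an adjusted p called a gene it was Eno1, with an adjusted p of 0.0245 with the trend in TAC-R against TAC, and 0.000601 with the trend and 0.0262 without dim rows in TAC-R against normal. The cause of these changes was not tested. The median difference of the 34 genes in TAC minus normal ran between -0.000175 and 0.125, in TAC-R minus TAC between -0.0525 and -0.0014 and in TAC-R minus normal between 0.0338 and 0.093 when an array was left out. With array medians aligned these medians were 0.0738, 0.0085 and 0.123, with arrays quantile normalised again 0.0591, -0.044 and 0.0133, and without dim rows 0.0657, 0.0197 and 0.0816, so that the sign in TAC-R minus TAC was not settled. Of single genes, 1515 differences were recomputed under 16 alternatives, most of genes that were not called. A changed sign was counted for 25 in TAC minus normal, 21 in TAC-R minus TAC and 32 in TAC-R minus normal. The last count includes Ldhb, whose difference was 0 in the main fit, so that any departure from 0 counted. With an array left out this departure was at most 3.6e-15 in size. Without TAC 1, Ldhb also counted in the other comparisons, at 7.1e-15 in TAC minus normal and -3.6e-15 in TAC-R minus TAC. The difference of Eno1 kept its sign throughout. Over all tested rows, the deviations of arrays with the same replicate number correlated at -0.0127, -0.00932 and 0.0117. Most of these rows are dim, so the correlations cannot settle whether the replicate numbers pair the arrays. The block kept Eno1 called in TAC against normal (limma's adjusted p = 0.0376).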
